A study of Mus musculus with 12 samples.

Results

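A set of 10 genes of retinol uptake and metabolism was followed in mouse small intestinal organoids: Rbp2, Bco1, Aldh1a1, Adh1, Dhrs3, Isx, Scarb1, Lrat, Rdh7 and Cyp26b1. They were taken by symbol, and all 10 were found in both count tables, which list 55335 entries each. Organoids are epithelial cultures grown in a basement membrane gel. These came from a female Lgr5GFPDTR/+ mouse and are labelled line26 wild type, Lgr5GFPDTR/+, so all 12 libraries stem from 1 donor animal and carry that allele. The ENR control grew in ENR medium (growth factors EGF, Noggin and R-spondin) and was taken on day 6. The RANKL group received 3 µM CHIR99021, an inhibitor of the kinase GSK3, with 1.5 mM valproic acid, an inhibitor of histone deacetylases, for 3 days. After 1 day in ENR medium it was given RANKL at 100 ng/mL for 6 days, a cytokine used to obtain M cells, which sample antigen in the gut epithelium. RANKL II is labelled with the same treatment and was run for the experiments with CSRM617. The RANKL+CSRM617 group received 40 µM CSRM617 with RANKL; the series title names ONECUT2, the transcription factor that this compound is described as inhibiting. Each group has 3 libraries, stated to be independent differentiation experiments. No vehicle is named for CSRM617, and the pretreatment with CHIR99021 and valproic acid is described for the RANKL cultures only, so its part in the RANKL comparison cannot be told apart from that of RANKL. The control libraries' column names begin with CVENR, a prefix that no label explains, so whether the controls also passed through the pretreatment is not settled. The RANKL comparison is therefore between the groups as labelled.

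Vitamin A reaches the enterocyte as carotenoids or as retinol. Scarb1 encodes a scavenger receptor that takes up carotenoids and other lipids, Bco1 cleaves beta-carotene into retinal, and Isx is a homeobox factor known to be induced by retinoic acid and to repress Scarb1 and Bco1. Inside the cell Rbp2 binds retinol, Lrat esterifies it for export in chylomicrons, Adh1 and Rdh7 oxidise retinol to retinal, and Dhrs3 reduces retinal back to retinol. Aldh1a1 oxidises retinal to retinoic acid, the ligand of nuclear receptors, and Cyp26b1 breaks retinoic acid down. All 10 are annotated on GRCm38 as protein-coding genes. The uptake and cleavage genes are Scarb1 at chr5:125277087-125341094 (minus strand), Bco1 at chr8:117095854-117133720 (plus strand) and Isx at chr8:74873173-74893506 (plus strand). Binding and ester formation are represented by Rbp2 at chr9:98486115-98509781 (plus strand) and Lrat at chr3:82892579-82903973 (minus strand). The enzymes between retinol and retinal are Adh1 at chr3:138260991-138290698 (plus strand), Rdh7 at chr10:127884028-127888817 (minus strand) and Dhrs3 at chr4:144892827-144928209 (plus strand). Retinoic acid is made and cleared by Aldh1a1 at chr19:20492715-20643465 (plus strand) and Cyp26b1 at chr6:84571414-84593908 (minus strand).

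The promoters of Rbp2 and Bco1 are shown because they share a stretch of 11 bases at nearly the same distance from the start of transcription, and because both genes rose with CSRM617. In a RefSeq table of promoters on GRCm38.p6, 9 of the 10 genes had an entry (13 windows in all), and Scarb1 had none. The lines give the 80 bases from -100 to -21 relative to the start, 5′ to 3′ on the plus strand, with the shared stretch in capitals. They lie at chr9:98490437-98490516 for Rbp2 and chr8:117095765-117095844 for Bco1, and overlap no annotated exon of the 10 genes. The Rbp2 line lies inside the span annotated for Rbp2, so the start used here is not the outermost annotated one.
Rbp2: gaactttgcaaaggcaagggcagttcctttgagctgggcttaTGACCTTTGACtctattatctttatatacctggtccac
Bco1: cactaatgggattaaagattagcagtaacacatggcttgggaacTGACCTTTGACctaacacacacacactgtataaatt
The stretch, TGACCTTTGAC, runs from -58 to -48 in Rbp2 and from -56 to -46 in Bco1. It was found by searching the windows of Rbp2 and Bco1 for their longest common run of letters. A run picked this way is shared by design, so its share of all windows is a description with no test. On either strand it was found in 10 of 32851 promoter windows of 250 bases (0.0304%), in 10 genes. It begins with TGACCT, the reverse complement of the nuclear receptor half-site AGGTCA, which occurs in the windows of 15.8% of all genes and, among the 9 genes, in those of Rbp2, Bco1 and Rdh7. In Bco1 the stretch opens TGACCTTTGACCT, a full direct repeat of the half-site with 1 base of any kind between, a pattern that 0.0335% of windows hold on either strand; the half-site and shared-stretch matches lie inside it. Neither the same repeat with 5 bases between nor the letters ATTGAT, the core of ONECUT sites that 6.72% of windows hold, occurred in the windows of these genes. The letters TTTAT, a core of CDX sites, occurred in the windows of 7 of the 9 genes and of 41.1% of all genes. The motifs were chosen after the promoters had been read, and a match is a description of letters.

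Depth ran from 5795541 to 7719157 counts per library in the table of ENR control and RANKL, and from 8669153 to 14041947 in the table of RANKL II and RANKL+CSRM617. Levels are given as CPM, counts scaled to the library's total with TMM factors, which even out composition within a table; the tables were scaled separately, so levels set across them are side by side only. The loci Gm26917 and Gm42418, which collect ribosomal RNA reads, took 21.9% to 35.5% of counts in the ENR control libraries and 9.71% to 10.7% in those of RANKL. In the other table they took 6.44% to 6.71% of RANKL II and 15.3% to 15.8% of RANKL+CSRM617 counts, so the share differed between the groups of both comparisons. No call of the 10 genes changed when these loci and the mitochondrial genes were left out. Fold changes also followed the GC content of transcripts, with a Spearman correlation across genes of -0.32 in the RANKL comparison (13383 genes) and 0.585 in the CSRM617 comparison (13964 genes). Values corrected with GC offsets per library are therefore given where they end a call, turn a direction or move a value by over 1.5 times. This covers the 10 genes and the pathway and marker lists. Other single genes are given with TMM scaling only. All 6 markers of intestinal epithelium were detected and tested in both tables. Of 9 stromal and endothelial markers, Col1a2, Col3a1, Dcn, Cdh5 and Kdr had 0 counts in all libraries, while the others were detected at low levels. The 9 summed to 6.13 to 7.30 CPM in ENR control and 10.6 to 14.1 CPM in RANKL, where 2 were tested (1 higher, 1 lower). They summed to 9.79 to 11.7 CPM in RANKL II and 13.5 to 14.9 CPM with CSRM617, where 1 was tested and called higher with TMM scaling.

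Per kilobase of exon, Isx and Adh1 stood above the other 8 genes in every group. Levels here are CPM divided by exon length in kilobases (CPM per kb). In ENR control Isx was at 114.5 ± 6.09 CPM per kb and Adh1 at 98.2 ± 4.96 (SD, n = 3). Rbp2 (30.4 ± 6.36) and Dhrs3 (27.0 ± 2.03) overlapped, as did Rdh7 (6.94 ± 0.913) and Aldh1a1 (5.73 ± 1.4). Scarb1 followed at 4.15 ± 0.317 and Cyp26b1 at 1.38 ± 0.512, and Lrat (0.276 ± 0.096) and Bco1 (0.253 ± 0.023) were lowest and overlapped. In RANKL the order opened with Adh1 at 237.4 ± 10.2, Isx at 101.9 ± 3.72 and Dhrs3 at 42.5 ± 8.03. The ranges of Rbp2 and Rdh7, of Rdh7 and Aldh1a1, and of Bco1 and Lrat overlapped there. RANKL II kept Adh1 (401.2 ± 0.178), Isx (105.8 ± 2.14) and Dhrs3 (52.0 ± 0.64) on top, and none of its neighbours in the order overlapped. In RANKL+CSRM617 Rbp2, at 44.6 ± 2.01, stood next, above Dhrs3 at 40.7 ± 1.1, and the ranges of Bco1 (1.16 ± 0.0451) and Cyp26b1 (1.015 ± 0.125) overlapped. Summed per kilobase over the 10 genes, ENR control had 288.8 ± 16.7 CPM per kb and the RANKL group 412.7 ± 11. The sum was 581.0 ± 2.54 for RANKL II and 951.8 ± 15.8 once CSRM617 was added. Adh1 alone made up 34.0%, 57.5%, 69.0% and 71.9% of these sums, in the order given. The length used is the union of annotated exons, which is long for a gene with many transcript forms such as Scarb1, so orders between genes are approximate.

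**Figure D1:**
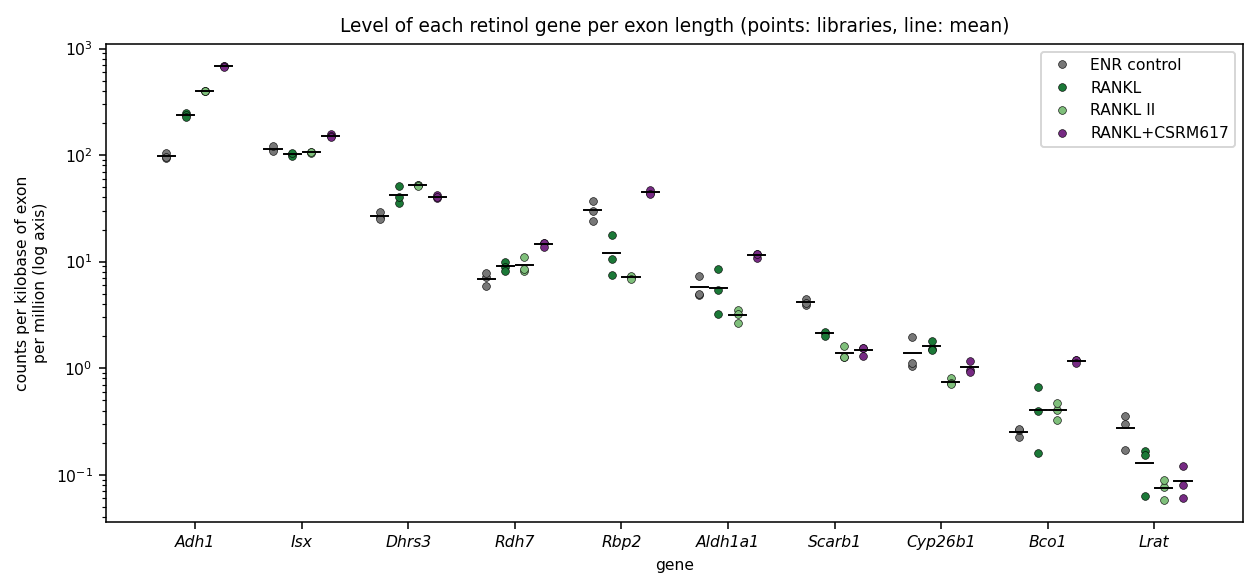
Level of each gene in CPM per kilobase of exon (log axis), with 1 point per library, a line at the mean of 3 libraries and 1 colour per group; genes are ordered by their mean in RANKL II. Adh1 is at 98.2 in ENR control and 237.4 in RANKL, and at 401.2 in RANKL II and 684.7 in RANKL+CSRM617, which were scaled separately; Lrat and Bco1 lie near or below 1 CPM per kb.

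With RANKL, the retinol genes split. Adh1, Dhrs3 and Rdh7 were higher than in ENR control, Rbp2 and Scarb1 were lower, and Aldh1a1, Isx and Cyp26b1 did not pass the test. Of the 10 genes, 8 had counts high enough for the test across 13570 genes; Bco1 and Lrat did not. Of all genes tested, 28.7% were called higher and 28% lower, so 3 higher and 2 lower of 8 is near the background. The median log2 fold change of the 8 genes was 0.14, beside 0.003 over all genes tested.

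Scarb1, the uptake receptor, read 33.0, 38.3 and 34.5 CPM in the ENR control libraries and 18.3, 18.8 and 17.1 CPM with RANKL. The groups did not overlap, and Scarb1 fell by 0.97 on the log2 scale (SE 0.112, adjusted p = 2.47e-06). Isx read 204.5, 194.8 and 216.6 CPM in ENR control and 183.1, 175.9 and 189.2 CPM with RANKL. The ranges of Isx lay close without overlap, and its log2 fold change of -0.17 (SE 0.0785) missed the threshold at an adjusted p of 0.0821. Without ENR control replicate 2 the same gene passed it, at -0.21 and 0.00557. Bco1 had only 11 counts in all ENR control libraries and 27 in all RANKL libraries, a ratio of 1.67 after scaling with an exact 95% interval of 0.801 to 3.73 that covers counting error only. Its RANKL libraries ran from 0.406 to 1.68 CPM and enclosed the ENR control range, and no difference was detectable at this depth.

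Rbp2, the retinol-binding protein of enterocytes, read 29.0, 23.2 and 35.4 CPM in ENR control and 17.1, 10.3 and 7.18 CPM with RANKL. Every RANKL library lay under every control library, and Rbp2 fell by 1.30 on the log2 scale (SE 0.267, adjusted p = 0.0019). Lrat, which forms retinyl esters, was near the floor of the assay, with 26 counts over the ENR control libraries and 17 over those of RANKL. Its libraries read 1.92, 1.60 and 0.914 CPM in ENR control against 0.898, 0.339 and 0.813 CPM with RANKL, separate by a margin below what 1 count is worth in CPM. The scaled ratio was 0.444, with an exact 95% interval of 0.226 to 0.851 for counting error only, and with no filter on low counts edgeR gave Lrat a log2 fold change of -1.15 (SE 0.501, adjusted p = 0.0549). Lrat entered the test and was called lower without ENR control replicate 3 (-1.34, adjusted p = 0.0267) and without RANKL replicate 1 (-1.42, adjusted p = 0.0391), but not called without RANKL replicate 2 (-0.81, adjusted p = 0.169) or replicate 3 (-1.27, adjusted p = 0.057).

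Adh1 had the largest rise of the set. It read 231.9, 211.8 and 213.9 CPM in ENR control and 551.1, 533.4 and 506.0 CPM with RANKL, a log2 fold change of 1.27 (SE 0.0783, adjusted p = 2.06e-09). The RANKL libraries all stood over 2-fold above every control library. The exons of Adh1 share 136 bases with Gm16559 on the opposite strand, and whether the counting used strand is not stated. Rdh7, the other retinol-oxidising member, read 11.9, 9.99 and 13.02 CPM in ENR control and 16.5, 15.0 and 13.8 CPM with RANKL. The margin between the groups was small, and the log2 fold change was 0.40 (SE 0.15, adjusted p = 0.0305). This call was lost with DESeq2 (adjusted p = 0.138) and without any of 4 libraries: ENR control 1 (0.0586), ENR control 2 (0.138), RANKL 1 (0.118) or RANKL 2 (0.0774). Rdh7 also has close relatives in its gene family (Rdh1, Rdh9, Rdh16), among which reads may have been split. Dhrs3, which reduces retinal, read 77.6, 74.1 and 85.7 CPM in ENR control and 104.3, 118.6 and 150.2 CPM with RANKL. It was higher in every RANKL library, with a log2 fold change of 0.65 (SE 0.117, adjusted p = 0.000203).

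Aldh1a1, which makes retinoic acid, read 36.3, 24.1 and 24.4 CPM in ENR control and 42.2, 26.6 and 15.8 CPM with RANKL. The RANKL libraries lay on both sides of the controls. Aldh1a7, the other tested gene listed here under retinal oxidation, was lower with RANKL (log2 fold change -1.70, SE 0.245, adjusted p = 1.93e-05). RNA counts do not show whether its product oxidises retinal. The log2 fold change of Aldh1a1 was 0.02 (SE 0.367, adjusted p = 0.971), a sign that turned with GC offsets (-0.22) and under other settings, so no direction is given. Cyp26b1, which clears retinoic acid, read 5.57, 6.00 and 10.5 CPM in ENR control and 9.54, 8.14 and 7.99 CPM with RANKL. ENR control replicate 3 was above all RANKL libraries, and the log2 fold change of 0.27 (SE 0.219) had an adjusted p of 0.311. Without that library Cyp26b1 passed, at 0.55 and 0.0317.

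The RANKL libraries differed more among themselves in some of these genes than in others. The coefficient of variation was 43.9% for Rbp2, 47.0% for Aldh1a1 and 61.7% for Bco1, against 4.28% for Adh1 and 3.65% for Isx. RANKL replicate 1 was highest and replicate 3 lowest in Rbp2, Bco1 and Aldh1a1, and by smaller margins in Adh1, Rdh7 and Cyp26b1. Dhrs3 ran the other way, and Isx, Scarb1 and Lrat followed neither order. In RANKL II, labelled with the same treatment, Rbp2 varied by 3.38%, Aldh1a1 by 13.2% and Adh1 by 0.0445%. The spread of Adh1 in RANKL II, in CPM and per kilobase, was below what counting error alone gives at 8645 to 11181 counts per library. It therefore does not measure how alike the replicates were. The RANKL II libraries were close to counting error overall (chi-square per degree of freedom of 1.1 to 1.43 over genes, against 2.25 to 4.21 in RANKL and 5.97 to 36.7 in ENR control). The same measure was 1.18 to 5.12 in RANKL+CSRM617.

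**Figure D2:**
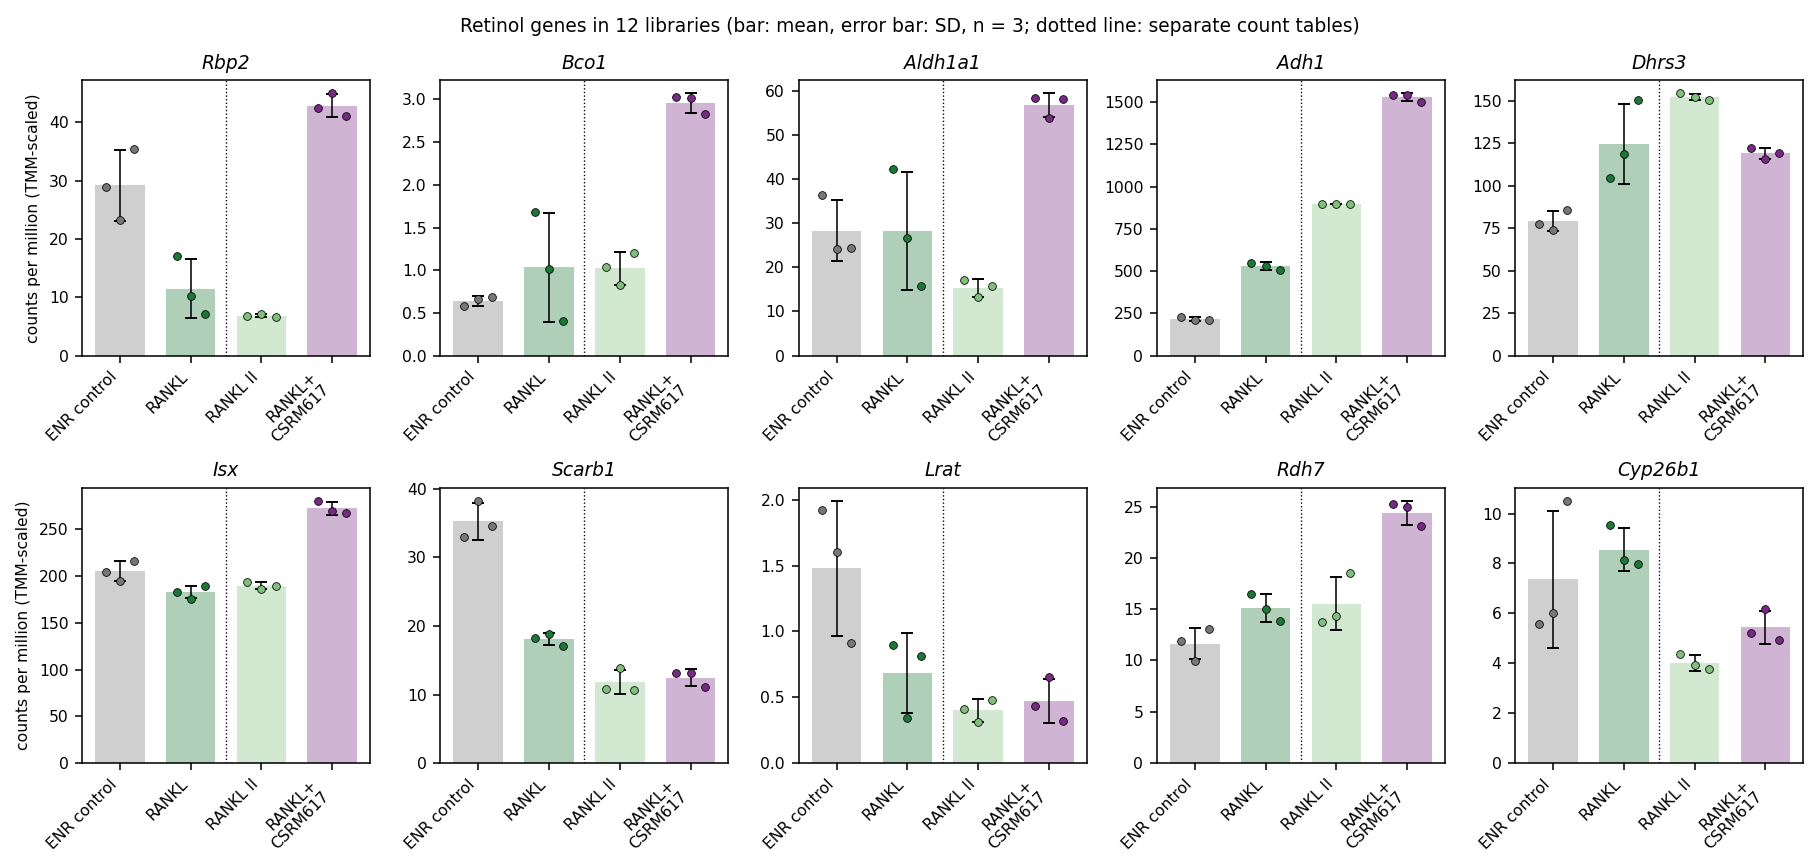
CPM of each gene in 12 libraries (points), with the mean (bar) and SD (error bar) of 3 libraries per group; the dotted line parts the separately scaled tables, and each panel has its own axis from 0. Rbp2 is low in both RANKL groups and at 41.1 to 44.9 CPM in the CSRM617 libraries, and Adh1 is higher with RANKL and with CSRM617.

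With CSRM617 added to RANKL, most of the set was higher. Rbp2, Bco1, Aldh1a1, Adh1, Isx, Rdh7 and Cyp26b1 passed the test upward, Dhrs3 passed downward, and Scarb1 did not pass. Of the 10 genes, 9 were tested among 14167, Lrat being too low. Background calls were 35.2% higher and 36.2% lower, beside 7 higher and 1 lower of 9 here. With GC offsets 6 of the 9 were higher and 1 lower, beside 4650 higher and 4385 lower of all 14167 genes. The median log2 fold change with TMM scaling was 0.63, beside -0.02 over all genes tested. Adjusted p in this comparison rests on the spread among libraries from 1 donor animal, which in RANKL II was close to counting error.

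Rbp2 had the largest change. It read 6.84, 7.11 and 6.65 CPM in RANKL II and 42.5, 44.9 and 41.1 CPM with CSRM617. The lowest CSRM617 library was over 5 times the highest RANKL II library, and the log2 fold change was 2.65 (SE 0.105, adjusted p = 5.89e-28). Lrat stayed at a few counts, 13 in RANKL II and 16 with CSRM617, a scaled ratio of 1.16 (exact 95% interval 0.521 to 2.61, counting error only). A difference in Lrat was not detectable at this depth.

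Bco1, the carotene-cleaving enzyme, read 1.04, 0.824 and 1.20 CPM in RANKL II and 3.03, 3.01 and 2.82 CPM with CSRM617, from 33 and 100 counts. The groups were well apart, with a log2 fold change of 1.50 (SE 0.284, adjusted p = 2.81e-06). Isx read 193.5, 185.9 and 189.5 CPM in RANKL II and 280.6, 269.8 and 267.3 CPM with CSRM617. It was higher in every CSRM617 library, by 0.52 on the log2 scale (SE 0.0325, adjusted p = 1.44e-18). Scarb1 read 10.8, 13.8 and 10.7 CPM against 13.2, 13.1 and 11.1 CPM. These ranges overlapped, and the log2 fold change of 0.09 (SE 0.113, adjusted p = 0.498) turned to -0.14 with GC offsets.

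Among the oxidising enzymes, Adh1 went from 895.7, 896.2 and 895.4 CPM in RANKL II to 1544, 1541 and 1502 CPM with CSRM617. That difference was 0.77 on the log2 scale (SE 0.0244, adjusted p = 4.49e-29), with no overlap. Rdh7 read 13.8, 14.3 and 18.5 CPM and then 25.2, 24.9 and 23.1 CPM, a log2 fold change of 0.63 (SE 0.0939, adjusted p = 1.01e-07). Dhrs3, working in the opposite direction, read 154.2, 151.8 and 150.5 CPM in RANKL II and 122.3, 115.8 and 119.3 CPM with CSRM617. It fell by 0.35 on the log2 scale (SE 0.0373, adjusted p = 2.13e-11), and by 0.57 with GC offsets.

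Aldh1a1 read 17.2, 13.2 and 15.9 CPM in RANKL II and 58.3, 53.7 and 58.2 CPM with CSRM617. Each CSRM617 library was over 3 times each RANKL II library, with a log2 fold change of 1.87 (SE 0.0805, adjusted p = 2.18e-25). Aldh1a7, a near copy of Aldh1a1 with which reads may be shared, rose by 1.73 on the same scale (adjusted p = 2.5e-15) from a mean of 3.93 to 13.1 CPM. Cyp26b1 read 4.35, 3.92 and 3.76 CPM against 5.19, 6.19 and 4.92 CPM. Its log2 fold change of 0.45 (SE 0.17, adjusted p = 0.0162) had the highest adjusted p of the 8 calls. The call was lost with DESeq2 (0.135), with GC offsets (0.10, adjusted p = 0.632), without CSRM617 replicate 2 (0.35, adjusted p = 0.104) and without RANKL II replicate 3 (0.40, adjusted p = 0.071).

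**Figure D3:**
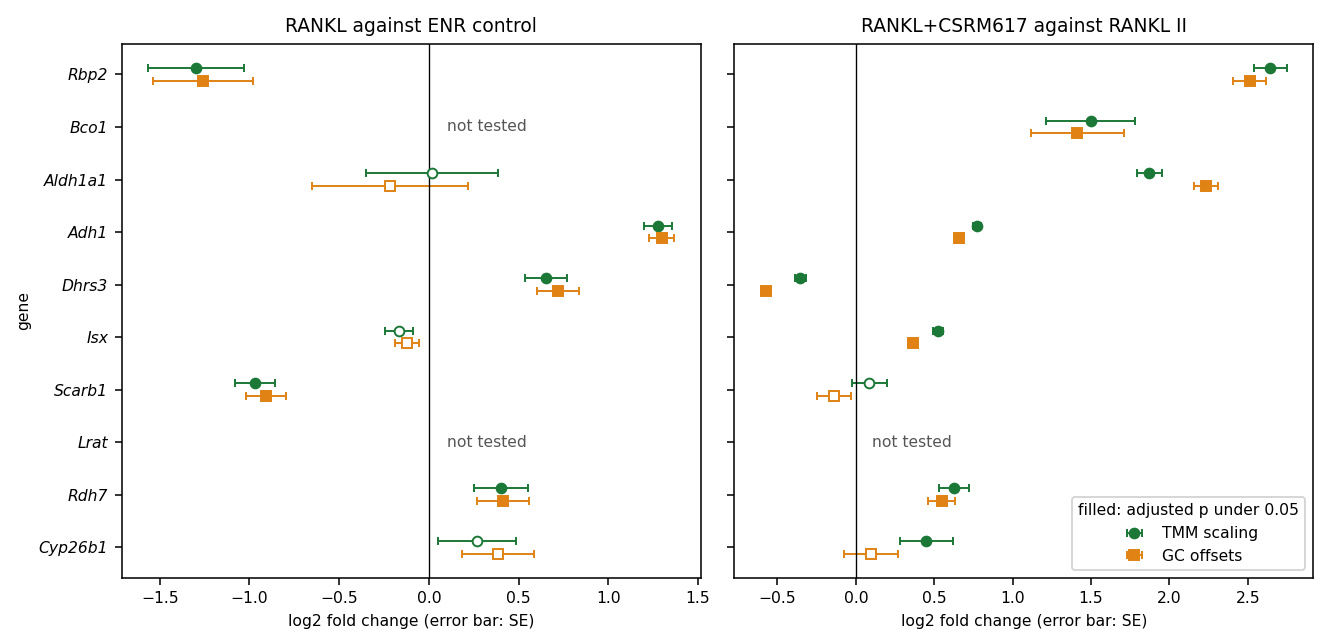
Log2 fold change with its SE for each gene in both comparisons, with TMM scaling (circles) and with GC offsets (squares); filled symbols have an adjusted p under 0.05. With CSRM617, Rbp2 (2.65) and Aldh1a1 (1.87) are farthest to the right and Dhrs3 (-0.35) is left of 0, and Cyp26b1 loses its call with GC offsets.

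Counts of groups that did not overlap include genes too low for the test. With RANKL 3 of the 10 genes lay wholly above and 4 wholly below the controls (Rbp2, Scarb1, and also Isx, which was not called, and Lrat, which was not tested), against 32.2% and 31.2% of all genes tested (63.3% either way). With CSRM617 7 lay wholly above and 1 wholly below RANKL II, against 36.1% and 37% (73.1% either way).

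Markers of cell types were read in the same comparisons. Of all genes tested with TMM scaling, 28.7% were called higher and 28% lower with RANKL, and 35.2% and 36.2% with CSRM617. Splits of the markers near these shares are no more than the background. In bulk RNA, more cells of a type and more RNA per cell cannot be told apart. Of 12 mature enterocyte markers, 5 were higher and 6 lower with RANKL, and their summed level ran from 4225 to 4581 CPM in ENR control and from 5232 to 6541 CPM in RANKL. With CSRM617 all 12 were higher, from 7303 to 7344 CPM in RANKL II to between 14490 and 14670 CPM. All 9 M cell markers were higher with RANKL (59.2 to 64.8 CPM in ENR control, 1036 to 1113 CPM in RANKL), and with CSRM617 4 were higher and 5 lower (1120 to 1143 CPM, then 1082 to 1109 CPM; 3 and 4 with GC offsets). Of 7 Paneth cell markers, 6 were lower and 1 higher with RANKL (532.4 to 910.6 CPM, then 375.9 to 391.3 CPM), and 6 were higher and 1 lower with CSRM617 (560.5 to 575.2 CPM, then 880.1 to 903.6 CPM). Of 7 stem cell markers, 4 were lower and 2 higher with RANKL (2245 to 2593 CPM, then 790.3 to 1128 CPM), and with CSRM617 3 were higher and 3 lower (270.0 to 281.6 CPM, then 279.8 to 281.2 CPM; 2 and 4 with GC offsets). Goblet markers had 3 higher and 3 lower of 7 with RANKL (4 and 3 with GC offsets) and 4 and 3 with CSRM617 (3 and 3 with GC offsets). Their summed level was nonetheless higher, from 1109 to 1154 CPM in ENR control to between 1954 and 2815 CPM in RANKL. It went from 2807 to 2887 CPM in RANKL II to between 3785 and 3957 CPM with CSRM617. Tuft markers had 4 of 6 higher with RANKL and 5 of 6 with CSRM617 (4 with GC offsets). All 7 on the list summed to 87.96 to 115.6 CPM in ENR control and 123.1 to 153.6 CPM in RANKL. The sums were 66.79 to 70.68 CPM in RANKL II and 101.8 to 108.2 CPM with CSRM617. Enteroendocrine markers had 1 of 3 lower with RANKL and 3 of 4 higher with CSRM617 (2 with GC offsets). The 7 listed summed to 29.05 to 42.5 CPM in ENR control and 25.37 to 32.5 CPM in RANKL. They summed to 28.39 to 32.92 CPM in RANKL II and 53.48 to 63.51 CPM with CSRM617. The 6 epithelial markers had 3 higher and 1 lower with RANKL (4 and 1 with GC offsets), and 5 higher and 1 lower with CSRM617 (2 and 2 with GC offsets). Their sums were 2939 to 3131 CPM in ENR control and 3319 to 3439 CPM in RANKL. In RANKL II they were 4016 to 4067 CPM, and 4944 to 5168 CPM with CSRM617. The 6 immune markers summed to at most 3.42 CPM in any library. The part of these cell types in the retinol genes' changes was not tested.

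Around the 10 genes, a list of 60 other retinoid pathway genes was read. Counts for the list and for its steps below stand beside 28.7% higher and 28% lower of all genes with RANKL. With CSRM617 these shares were 35.2% and 36.2%. With RANKL 36 could be tested, and 11 were higher and 14 lower, against 56.7% of all genes called either way. With CSRM617 37 could be tested, and 18 were higher and 12 lower, against 71.4%. With GC offsets 15 were higher and 13 lower, against 9035 of all 14167 genes called. The median log2 fold changes of the list were 0.06 and 0.19 with TMM scaling.

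In binding and transport, 3 of 5 tested genes were higher and 2 lower with RANKL. Stra6, a membrane receptor for retinol bound to its serum carrier, had 3 counts in all ENR control libraries and 1328 in all RANKL libraries, a scaled ratio of 301 (exact 95% interval 102.7 to 1461, counting error only). Its level with RANKL was 40.1, 59.5 and 60.3 CPM, while the related Stra6l went from 188.0, 153.3 and 168.9 CPM to 36.7, 35.1 and 33.8 CPM and fell by 2.27 on the log2 scale (SE 0.0948, adjusted p = 2.68e-11). Fabp5, a fatty acid-binding protein that can also carry retinoic acid, rose by 2.81 (SE 0.236, adjusted p = 1.69e-08). With CSRM617 0 of the 5 tested genes were higher and 2 were lower. Stra6 was among these, at 57.8, 64.4 and 61.0 CPM in RANKL II and 15.2, 14.9 and 15.0 CPM with CSRM617, so that it fell by 2.02 on the log2 scale (SE 0.0753, adjusted p = 1.06e-27).

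Ester formation and hydrolysis had 2 genes higher and 2 lower of 5 with RANKL. Plb1, a brush border phospholipase that also cleaves retinyl esters, went from 0.192, 0.133 and 0.914 CPM to 7.63, 4.86 and 5.96 CPM (log2 fold change 4.06, SE 0.664, adjusted p = 1.6e-06). Ces1d, a carboxylesterase, fell by 2.17 on the log2 scale (SE 0.223, adjusted p = 4.12e-07), from a mean of 13.6 to 3.01 CPM. With CSRM617 3 of 5 genes were higher and 1 lower (2 and 1 with GC offsets). Uptake and cleavage had 1 gene higher and 1 lower of 2 with RANKL, and 1 higher and 2 lower of 3 with CSRM617 (0 and 1 with GC offsets).

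Of 8 genes of chylomicron assembly, the route by which retinyl esters leave the enterocyte, 3 were higher and 4 lower with RANKL. Apoa4, an apolipoprotein of these particles, went from 152.3, 103.8 and 173.9 CPM to 1300, 1038 and 825.6 CPM (log2 fold change 2.89, SE 0.217, adjusted p = 1.47e-05). With CSRM617 7 of the 8 were higher and 1 lower (6 and 1 with GC offsets). Apoa4 rose again, from a mean of 1197 to 4327 CPM (log2 fold change 1.85, SE 0.0273, adjusted p = 4.05e-36). Mttp, which loads lipid onto the particles, rose by 1.57 (SE 0.0293, adjusted p = 2.58e-37), and Apoa1 by 1.33 (SE 0.0263, adjusted p = 4.05e-36). Apob, Apoa1 and Apoa4 are also 3 of the 12 enterocyte markers.

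Retinol oxidation and retinal reduction had 11 tested genes outside the 10. With RANKL 3 were higher and 1 lower (4 and 1 with GC offsets). With CSRM617 4 were higher and 6 lower (4 and 5 with GC offsets), among them Rdh10, a retinol dehydrogenase, at 158.6, 162.8 and 157.9 CPM in RANKL II and 76.9, 84.9 and 79.05 CPM with CSRM617. Rdh10 fell by 0.99 on the log2 scale (SE 0.0413, adjusted p = 8.04e-25), or by 0.63 with GC offsets. Both breakdown genes beside Cyp26b1, Cyp26a1 and Cyp26c1, were too low to test.

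Of 4 tested nuclear receptors for retinoids, 3 were lower with RANKL. Rara, a receptor for retinoic acid, read 78.0, 64.0 and 82.3 CPM in ENR control and 40.5, 37.6 and 37.8 CPM with RANKL (log2 fold change -0.94, SE 0.104, adjusted p = 1.6e-06). Its partners Rxra and Rxrb were also lower, at -0.55 and -0.68 (adjusted p = 0.000106 and 0.00012; Rxrb -0.45 with GC offsets). Rarg had a log2 fold change of 0.25 and an adjusted p of 0.132, which became 0.42 and 0.0127 with GC offsets. With CSRM617 Rara (0.63), Rxra (0.67) and Rxrb (0.32) passed upward with adjusted p of 6.84e-13, 3.46e-16 and 2.01e-05. GC offsets lowered Rara to 0.18 and Rxra to 0.26, and turned Rxrb to -0.19 (adjusted p = 0.00359). Rarg read 0.07 (adjusted p = 0.549), and -0.36 (adjusted p = 0.000476) with GC offsets, so directions of the receptors with CSRM617 depend on the scaling for Rxrb and Rarg. Rarb had at most 0.686 CPM in any library and Rxrg had 0 counts. Of 3 tested target genes of retinoic acid, 1 was higher and 1 lower in each comparison (1 and 2 with CSRM617 and GC offsets); Stra6, counted in that list too, was the gene higher with RANKL and lower with CSRM617.

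**Figure D4:**
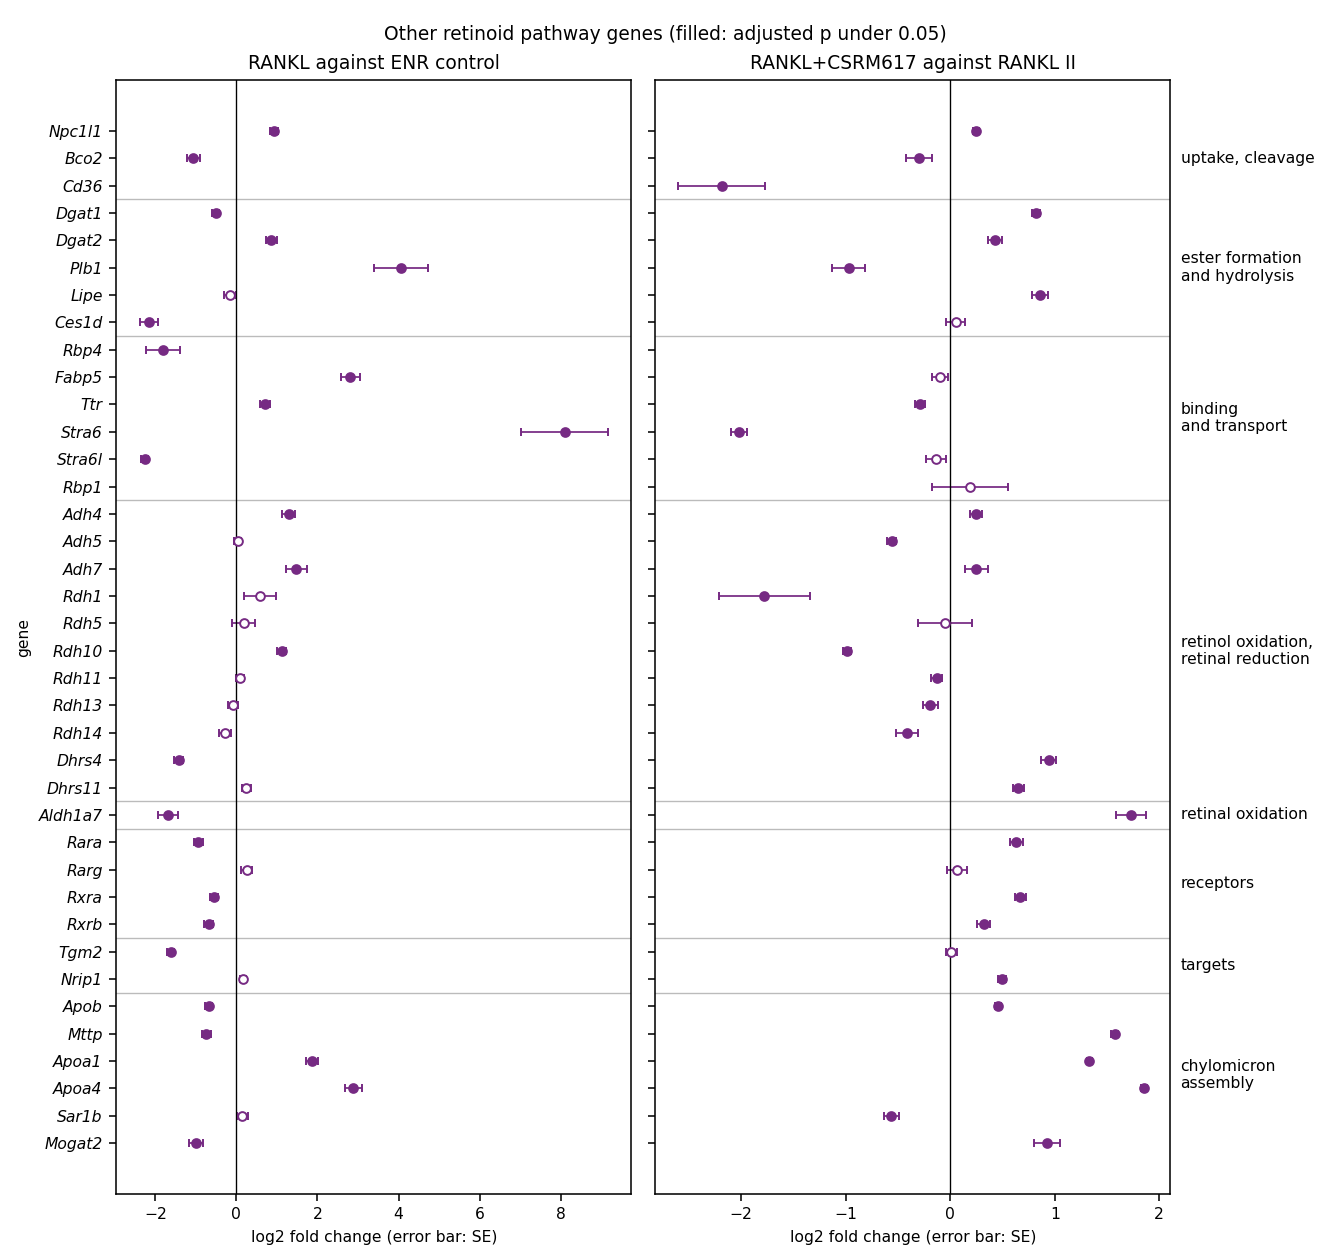
Log2 fold change with its SE for each tested gene of the 60 other retinoid pathway genes, in both comparisons, by step of the pathway; filled points have an adjusted p under 0.05, and the panels have different horizontal scales. Stra6 is the farthest right with RANKL and falls by 2.02 with CSRM617, and Apoa4, Aldh1a7 and Mttp lie above 1.5 with CSRM617.

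Likeness between patterns was measured as the Euclidean distance of log2 CPM, centred on the mean within each table, over 12 libraries and 10875 genes. The tables' group differences dominate this distance, so it is a description with no test. Distances and the log2 fold changes of the nearest genes are with TMM scaling only. The nearest 5 genes to Rbp2 were Jun (0.623), Hkdc1 (0.858), Hist1h2an (0.911), Defa17 (0.954) and Abat (1.14). Like Rbp2 they were lower with RANKL, with log2 fold changes of -0.95 to -1.996, and higher with CSRM617, at 2.13 to 2.56. The nearest to Aldh1a1 were Slc9a3 (0.724), Btnl1 (0.793), Iqgap2 (0.833), Dnah8 (0.917) and Ggt1 (0.94), which had no call with RANKL and rose by 1.51 to 2.26 with CSRM617. Among the 8 retinol genes measured this way, Rdh7 and Cyp26b1 were closest (0.783), Rbp2 and Aldh1a1 were 1.94 apart, and Rbp2 and Dhrs3 were farthest apart (4.51). The distance depends on the size of changes as well as on their direction. By Pearson correlation over the 12 libraries, Isx was at 0.936 with Rbp2, though 3.05 apart, and Aldh1a1 at 0.869. Rdh7 was at 0.526, Scarb1 at 0.513, Cyp26b1 at 0.401, Adh1 at 0.0628 and Dhrs3 at -0.806.

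The shared promoter stretch of Rbp2 and Bco1 occurred in 8 other genes. In the CSRM617 comparison 6 of the 10 genes with the stretch were tested. Rbp2 and Bco1 were higher, but the stretch was defined from these genes, which were shown because both rose. Their calls therefore say nothing about the stretch. Of the others, Igsf23 (0.52) was higher, Mospd1 (-0.79) and Srp54c (-0.51) were lower, and Srp54a (0.12) did not pass. Of all genes tested, 71.4% were called. In the RANKL comparison 5 were tested. There Igsf23 (0.52) and Mospd1 (0.51) were higher, Rbp2 was lower, and Srp54a and Srp54c did not pass. The genes other than Rbp2 and Bco1 were named for the stretch, after the promoters had been read. Their values are with TMM scaling only, and whether GC offsets would change them was not examined.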

How the data were processed

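Total RNA of 12 organoid libraries was depleted of ribosomal RNA and read as 42-bp pairs, per the labels' protocols. The authors deposited raw counts per gene in 2 tables, 1 per comparison; STAR, HTSeq 0.13.5, DESeq2 1.34.0 and mm10 (GRCm38) are named in the submitters' processing notes, while the strand setting was not stated. The authors also deposited log2 normalized values for 17442 and 18531 entries, used only as an alternative; how they were transformed was not stated. No deposited column was left out.

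The main test was edgeR 4.0.16 (R 4.3.3; robust quasi-likelihood, TMM factors, filterByExpr defaults) on all genes of the 6 libraries of a comparison, with no covariate. P-values were adjusted by Benjamini-Hochberg over all genes tested, and calls were made at 0.05. The fit was tested on simulated data. SE came from the model's working weights. Alternatives used DESeq2 1.42.0, limma 3.58.1 on the deposited log2 values, RLE and upper-quartile factors, no filter, a filter of 10 CPM in 3 libraries, tables without ribosomal RNA loci and mitochondrial genes, GC offsets (loess of log2 CPM on transcript GC, span 0.5), a replicate block, and each library left out. Genes were matched by symbol to GENCODE vM21 of GRCm38 (53437 of 55335 entries), which gave exon lengths and GC content. Replicate libraries of a group all differed beyond sampling noise by a chi-square over genes, and each was counted as a replicate. Over so many genes a small excess is enough to pass, so the chi-square cannot show that libraries are independent.

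The members, the pathway and marker lists and the tests were chosen with earlier results of these data known. The text names all 10 members, per comparison the 6 called pathway genes with the largest log2 fold change at an average log2 CPM of at least 1, the retinoid receptors, and the 5 genes nearest to Rbp2 and to Aldh1a1.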

Additional observations from a re-analysis of the deposited data

How the results depend on the processing

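The counts of retinol genes called and of all genes called stayed within 1.5 times of their main values under every alternative run. With RANKL the retinol genes numbered 2 to 4 higher and 2 to 3 lower over 6 fits that left out a library, and with CSRM617 6 to 7 higher and 1 lower. For Aldh1a1 with RANKL, which was not called, the log2 fold change turned from 0.018 to -0.002 with upper-quartile factors, -0.062 with limma on the deposited values, -0.026 with the replicate block, -0.217 with GC offsets and -0.253 with both block and GC offsets. It was also negative without ENR control 2 (-0.109), ENR control 3 (-0.064) or RANKL 1 (-0.395), and reached 0.288 without RANKL 3. Scarb1 with CSRM617 turned to -0.139 with GC offsets and -0.150 with block and GC offsets. The cause was not tested. Of the fitted values of single genes under the alternatives, 112 with RANKL and 135 with CSRM617 kept their direction and side of the threshold, and 5 and 5 lost a call (all for Rdh7 and Cyp26b1, respectively).

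The experiment numbers are shared between groups. Deviations of same-numbered libraries had small positive correlations, at 0.0283, 0.134 and 0.0403 for ENR control with RANKL. For RANKL II with CSRM617 they were 0.021, 0.0337 and 0.0588. Between different numbers the correlations ran from -0.0891 to 0.0335 and from -0.0438 to 0.0192, in that order. Each library correlated best with its own number, except ENR control 1, which was at 0.0335 with RANKL 3. The replicate block changed no call of a retinol gene and gave 7701 and 10095 genes called, beside 7699 and 10114 without it. With RANKL it lowered the SE of Aldh1a1 from 0.367 to 0.14, of Rbp2 from 0.267 to 0.219 and of Dhrs3 from 0.117 to 0.0928. The SE of the other tested retinol genes rose slightly there. Low counts limit Lrat in both comparisons and Bco1 with RANKL; limma on the deposited log2 values called Lrat lower with RANKL (-0.232, adjusted p = 0.0431), and that scale understates changes of low genes.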

Other observations

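For some pathway genes too low for the main test summed counts are given here, and fits with no filter on low counts are not. These genes were picked after their values were seen. The intervals are exact, at 95%, and cover counting error only. Aldh1a3, which makes retinoic acid from retinal, had 2 counts over the ENR control libraries and 18 over the RANKL libraries, a scaled ratio of 6.12 (1.46 to 54.4). Rbp7, a retinol-binding protein, had 0 counts in RANKL II and 14 with CSRM617. The scaled ratio was 4.38 with the group at 0 set to a floor of 3 counts in all. Its exact interval has a lower limit of 3.11. Aldh8a1, another retinal dehydrogenase, had 3 counts in RANKL II and 11 with CSRM617, a ratio of 3.44 (0.909 to 19.2). The intervals of Aldh8a1, of Rdh9 with RANKL (2 and 11 counts, 0.816 to 34.7) and of Rarb with CSRM617 (7 and 3 counts, 0.0671 to 1.76) include a ratio of 1.

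The RANKL and RANKL II sets carry the same treatment label and sit in separately scaled tables. Side by side, their mean levels were 530.2 and 895.8 CPM for Adh1, 124.3 and 152.1 CPM for Dhrs3, 28.2 and 15.4 CPM for Aldh1a1, 18.04 and 11.8 CPM for Scarb1, 182.7 and 189.6 CPM for Isx, 11.5 and 6.87 CPM for Rbp2, 8.56 and 4.01 CPM for Cyp26b1, 15.1 and 15.5 CPM for Rdh7, 1.04 and 1.021 CPM for Bco1, and 0.683 and 0.401 CPM for Lrat. The difference between these sets was not tested.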
